A study of Mus musculus with 12 samples.

Results

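The 633 regions described here are places in the mouse embryonic stem (ES) cell genome where a peak of the retinoid X receptor (RXR) was called after treatment with all-trans retinoic acid (RA) and in none of the 3 other ES conditions. They were selected on the peak calls themselves. Peaks in simple repeats, satellites, low complexity sequence, rRNA, LTR, SINE or LINE elements or the mitochondrial genome were dropped, the 4 ES RXR lists were merged at an overlap of at least 1 bp, and merged regions with an RA peak alone were kept. They make up 38.4% of the 1647 regions with an RA peak, and 633 of the 3129 RXR regions of all 4 lists. The absence of a call in the other lists is therefore part of the selection and not a result.

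RXR is a nuclear receptor that binds DNA mostly as the partner of another receptor, such as the retinoic acid receptors (RARs), the liver X receptors (LXRs) or the peroxisome proliferator-activated receptors (PPARs). The partners bind paired copies of a short core motif, and the spacing between the copies favours one pair of receptors over another. Spacing by 5 bases, written DR5 for a direct repeat, is the classical RAR element, and spacing by 1 base (DR1) is bound by PPAR and RXR pairs among others. RA is the ligand of the RARs and directs neural and hindbrain fates in ES cell cultures, where Hox genes and the RA-degrading enzymes of the Cyp26 family are well known targets.

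The study mapped RXR and acetylated histone H3 lysine 27 (H3K27ac), which marks promoters and enhancers in use, by chromatin immunoprecipitation and sequencing (ChIP-seq). Wild type E14 ES cells, grown without feeders and with leukemia inhibitory factor, received a ligand at 1 µM for 24 h or served as control, for which the protocol names the vehicle dimethylsulfoxide. The ligands were RA, LG268 (an RXR agonist) and GW3965 (an LXR agonist), and each ES condition has 1 RXR and 1 H3K27ac library. A neural differentiation through embryoid bodies gave RXR libraries at day 8 and day 16, 2 a day; its protocol adds RA at 5 µM, and both days share this exposure. Whether the 2 libraries of a day are from separate cultures is not in the labels, and their spread may be only technical.

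After repeat peaks were dropped, the RXR lists held 1650 peaks with RA, 1774 with LG268, 847 in control and 642 with GW3965. They held 847 and 1654 peaks at day 8, and 178 and 153 at day 16. The H3K27ac lists, used whole, held 21418 peaks in control, 17759 with GW3965, 12472 with LG268 and 14958 with RA. Read totals were not analysed here, so depth is unknown, and a list's length moves with depth as well as with binding. Of the promoters of 10 pluripotency genes, 4 carried an H3K27ac peak in control, 6 with GW3965 and 3 each with LG268 and RA; those with RA were Klf5, Tbx3 and Tfcp2l1. Of 5 endoderm genes, 0 carried one in control and with GW3965, and 1 each with LG268 (Sox7) and RA (Sox17). Of 5 neural progenitor genes, 1 carried one in control and with GW3965 (Pax6 in both), and 0 with LG268 and RA.

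Sequence was at hand only for promoters, as RefSeq windows on build GRCm38.p6 (mm10) from 250 bases before to 50 after each gene start. Of these windows, 139 were overlapped by at least 1 bp by the peaks of 105 of the 633 regions. Such windows are called windows under the regions here, though they may reach past the peak. They were searched on both strands for the core motifs, which were AGGTCA or GGGTCA or AGTTCA or GGTTCA. Pairs were searched as direct repeats spaced by 0 to 8 bases and as inverted or everted repeats spaced by 0 or 1. A DR5 lay in 2 of the windows, those of Gm52524, a predicted gene, and Syndig1, a synaptic membrane protein. A DR1 also lay in 2, those of Dph5, an enzyme of diphthamide synthesis, and Pold1, the catalytic subunit of DNA polymerase delta. The elements of Gm52524 (chr2:115777100-115777128, minus strand) and Dph5 (chr3:115888001-115888025, plus strand) are shown with their flanks because these repeats are the ones the receptor pairs are known for. The Syndig1 stretch (chr2:149830535-149830707, plus strand) and the Akap11 stretch (chr14:78536861-78537108, minus strand) show a promoter with a DR5 and one without any repeat at a high score; both lie wholly inside the RA peak and before the gene start. Each is written 5′ to 3′ on the strand of the gene, with core motifs in capitals. The capitals of Dph5 are core motifs on the opposite strand.
Gm52524: agcaagGGTTCAtctcaAGTTCAgggcag
Dph5: cattccTGACCCtTGACCTctgccc
Syndig1: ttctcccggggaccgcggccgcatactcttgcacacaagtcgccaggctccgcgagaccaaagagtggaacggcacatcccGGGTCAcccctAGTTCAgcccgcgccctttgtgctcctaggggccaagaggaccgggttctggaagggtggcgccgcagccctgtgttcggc
Akap11: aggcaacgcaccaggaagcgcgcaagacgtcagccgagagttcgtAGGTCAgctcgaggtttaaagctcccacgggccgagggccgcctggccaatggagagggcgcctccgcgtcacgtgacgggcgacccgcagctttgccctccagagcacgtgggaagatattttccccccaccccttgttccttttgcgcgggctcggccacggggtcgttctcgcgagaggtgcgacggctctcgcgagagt

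Any of these repeats was found in 6 of the 139 promoter windows, or 4.32%, against 1.31% of all 32817 windows of the reference. Windows under other RXR regions held one at shares of 2.31% (LG268 alone), 5.38% (LG268 and RA but not control or GW3965) and 5.41% (control, LG268 and RA). Taken as a pool, the repeats were thus not particular to regions found with RA alone. At least 1 core motif was found in 61.9% of the windows under the regions, in 57.8% of those under regions found with LG268 alone and in 43.7% of all windows. A DR5 was held by 0.0975% of all windows and a DR1 by 0.222%. A DR5 lay in 2 of 139 windows with RA alone and in 0 of 173 with LG268 alone. It lay in 0 of 93 windows with LG268 and RA, and in 1 of 148 with control, LG268 and RA. These DR5 counts are too small to compare the classes. A DR1 lay in 1.44% of windows under the members and in 5.38% of those under regions of LG268 and RA. By region, 6 of 105 with RA alone and 4 of 147 with LG268 alone touched a window holding a repeat, which need not lie under the peak. The difference was 2.99 percentage points (95% interval -2.10 to 9.41, Fisher's exact test, adjusted p = 0.421). With ES lists of equal length the difference turned to -11.1 points. The interval is wide, so neither a difference nor a likeness in repeats between these classes was shown. A match of letters describes the window and does not mark a bound site. The DR5 region at Gm52524 lies in the 3′ UTR of BC052040 as annotated, scored 6.97 with RA, and had day 8 peaks scoring 14.1 and 20.8. The Syndig1 region scored 4.23 and had no day 8 peak.

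The regions found with RA alone were mostly low in the RA list. Each peak carries a score from the authors that is used here within a list, because its scale between libraries is not stated. The members' RA scores ran from 1.52 to 23.4 with a median of 5.41 and quartiles of 4.23 and 7.36. The other 1014 RA regions had a median of 8.075 and reached 95.92. Of the 165 highest RA regions 3 were members, or 1.82%, and of the 164 lowest 104 were, or 63.4%. Members had a median rank of 1390 among all 1970 RA peaks, and the highest was ranked 163. These values describe the selection and were not tested.

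**Figure D1:**
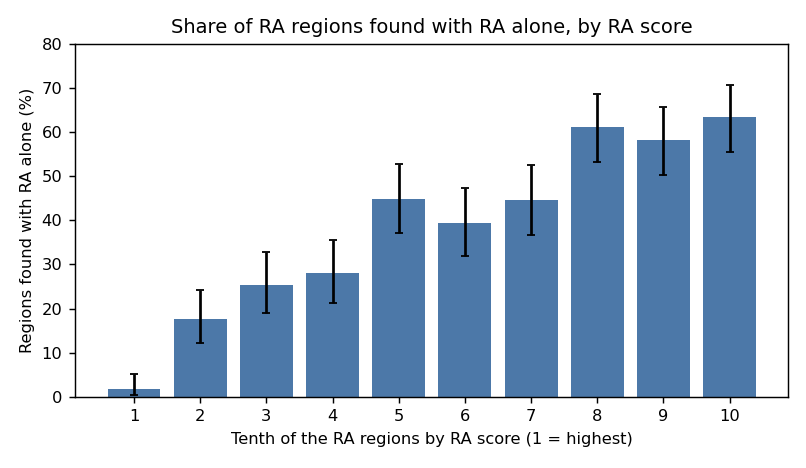
Share of the regions with an RA peak that were found with RA alone (%), in 10 bands by RA score from highest (1) to lowest (10). Bars are shares of 164 or 165 regions and lines are exact 95% intervals; the share runs from 1.82% in the highest band to 63.4% in the lowest.

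By the rule members overlap no kept peak of another ES list, so their gaps to such peaks partly describe the selection. The median gap to the nearest kept RXR peak of the other ES lists was 176780 bp. Such a peak lay within 1 kb of 18 members, within 10 kb of 55 and within 100 kb of 223. The gaps were not set against those of other regions. A dropped repeat peak of another list touched 10 members. The closest members lay 33 bp from an LG268 peak near Nr3c1, the glucocorticoid receptor (RA score 5.23), 40 bp from one at 3300002I08Rik (3.74) and 75 bp from one at Ddr1, a collagen receptor kinase (3.28). The regions just outside the rule overlapped another list's peak by 18 bp at St3gal2 (RA score 4.26), 22 bp at Il3ra (5.13) and 32 bp at Lefty1 (3.28).

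By position, 245 members were intergenic, 222 intronic and 132 in promoters as the deposited annotation defines them. A further 12 lay in 5′ UTRs, 9 at transcription end sites, 6 in coding exons, 5 in 3′ UTRs and 2 in non-coding exons. Of the intronic members 54 lay in a gene other than the one named as nearest. The median distance to the nearest transcription start site (TSS) was 16192 bp, and 269 members lay within 10 kb. The peaks were 173 to 495 bp wide with a median of 202 bp. Chromosome 11 held 95 members, or 15.0%, against 13.04% of all ES RXR regions.

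Within 1 kb of a TSS lay 177 members, or 28.0%, against 28.1% of all ES RXR regions. Regions found with LG268 alone were within 1 kb in 33.2% of 754 cases, a difference of -5.19 percentage points (95% interval -9.999 to -0.317, Fisher's exact test, adjusted p = 0.0650). The regions shared by LG268 and RA but absent from control and GW3965 stood at 30.3% of 390, a difference of -2.29 points (interval -8.10 to 3.36, Fisher's exact test, adjusted p = 0.511). The share was lower with RA alone than in the 473 regions found in control, LG268 and RA, 38.1% of which were within 1 kb (difference -10.1 points, interval -15.7 to -4.50, Fisher's exact test, adjusted p = 0.00120). This last difference was lost when repeat peaks were kept, at -1.30 points (adjusted p = 0.700 by Fisher's exact test). All tests of this kind compare regions called in single libraries and not treatments, and their p-values were adjusted over 27 tests.

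The day 8 lists held RA-alone regions more often than LG268-alone ones, and at shares near those of all ES RXR regions. A day 8 peak overlapped 15.96% of members in replicate 1 and 26.1% in replicate 2, a mean of 21.0% ± 7.15 (SD, n = 2). Over all ES RXR regions the replicates held 13.1% and 24.0%. Both replicates held 95 members, or 15.0% (95% interval 12.3 to 18.03), against 12.3% of all ES RXR regions. Of the other members, 6 had a peak in replicate 1 alone, 70 in replicate 2 alone and 462 in neither. Among regions found with LG268 alone the replicates held 2.25% and 9.42%, and both held 17 of 754, or 2.25%. The difference was 12.8 percentage points (interval 9.86 to 15.9, Fisher's exact test, adjusted p = 1.61e-17), and over 11 alternative settings it ran from 11.9 to 20.9 points, the highest being where the members alone were limited by score.

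Regions shared by LG268 and RA stood close to the RA-alone regions at day 8 when both replicates were required. Both replicates held 67 of 390, or 17.2%, a difference of -2.17 points (interval -6.98 to 2.37, Fisher's exact test, adjusted p = 0.464). In replicate 2 by itself the shares were 26.1% and 38.7%, a difference of -12.7 points that passed the test (adjusted p = 9.44e-05, Fisher's exact test), so this comparison rests on the first replicate. With each class limited to its higher-scoring regions and both replicates required, the difference was -5.18 points (adjusted p = 0.242, Fisher's exact test). Regions found in control, LG268 and RA were held at day 8 more often than the members, in 35.1% of cases, a difference of -20.1 points (interval -25.2 to -15.0, adjusted p = 8.92e-14, Fisher's exact test).

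The members and the remaining RA regions stood close at day 8 among low scores. Among high scores the gap lay in the highest 165 RA regions, of which 3 were members. Among the RA regions scoring 6.89 or less, both day 8 replicates held 11.4% of 439 members (interval 8.57 to 14.7) and 10.2% of 384 other RA regions (7.32 to 13.6). Among those scoring 6.89 or more they held 23.2% of 194 members (17.5 to 29.8) and 34.1% of 630 others (30.4 to 38.0). The intervals overlap in the lower band and do not in the upper band. Within the members, the day 8 share was 23.9%, 13.9%, 12.0% and 10.1% over 4 bands of about equal size from the highest to the lowest score. For LG268 alone the 4 bands held 3.17%, 3.19%, 2.12% and 0.532%.

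**Figure D2:**
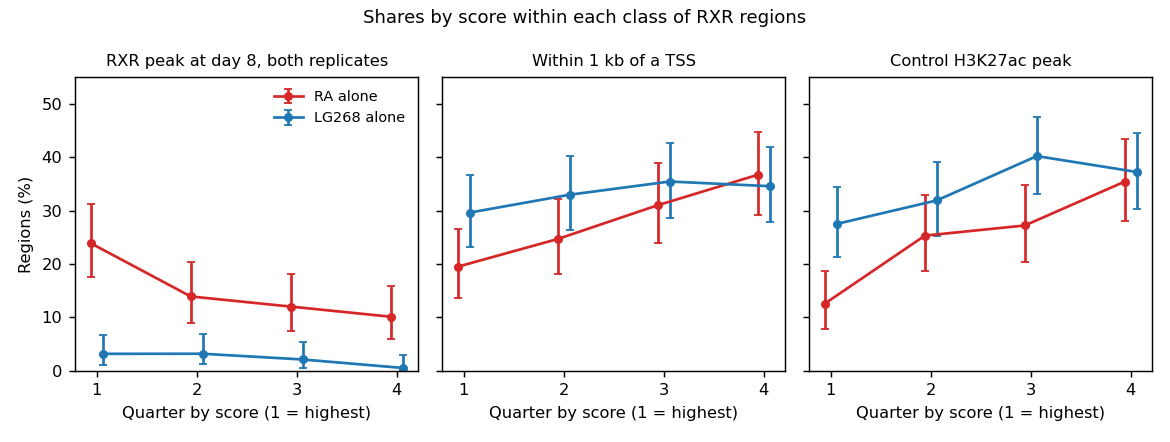
Shares of regions (%) with an RXR peak in both day 8 replicates (left), within 1 kb of a TSS (middle) or with a control H3K27ac peak (right), over 4 bands of about equal size by the score in each class from highest (1) to lowest (4). Red is RA alone and blue LG268 alone, and lines are exact 95% intervals; the RA-alone day 8 share runs from 23.9% to 10.1% and lies above the LG268-alone share in all 4 bands, while the members' promoter share runs from 19.5% to 36.7%.

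Distances between centres were taken only where a day 8 peak overlapped a member. Median widths were 202 bp for members and 182 and 203 bp for the day 8 lists. The required overlap thus keeps centres close by itself, and the distances are a description. The centres were a median of 32.5 bp apart in each replicate, and 96 of 101 peaks in replicate 1 and 153 of 165 in replicate 2 were centred within 100 bp. The members' day 8 peaks ranked from 35 to 1142 of the 1154 in replicate 1, with a median of 501. In replicate 2 they ranked from 28 to 2008 of 2044, with a median of 776.

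The highest member was 293.0 kb from the nearest gene, Tmem161b, a transmembrane protein gene, at chr13:84515041-84515480 (mm10). Its score was 23.4 with RA, and 82.47 and 101.73 in the day 8 replicates, ranks 35 and 33. The region 4.5 kb from Hoxc4, a homeobox gene of trunk and spinal cord patterning, at chr15:103038790-103039060, scored 16.57 with RA and 60.09 and 103.59 at day 8. That made it peak 59 of replicate 1 and peak 28 of replicate 2. Neither region overlapped an H3K27ac peak in any of the 4 lists or a day 16 peak. Of the 10 members highest with RA, those near Ankrd50, Eps15, Sec31a, 5830428M24Rik and 1110034G24Rik had no day 8 peak.

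Around the Hoxb cluster and the neighbouring gene Skap1, which encodes an adaptor protein of T cells, 5 members lay between chr11:96312082 and chr11:96646057, all with peaks in both day 8 replicates. The one nearest to Mir10a, a microRNA gene of the cluster, at chr11:96312082-96312297, scored 7.36 with RA and 33.3 and 60.45 at day 8. The one 7.1 kb from Hoxb1, a homeobox gene of the hindbrain, at chr11:96372657-96372968, scored 6.86 with RA and 12.98 and 45.24 at day 8. The other 3 lay in intron 4 of 12 of Skap1. The first of these, at chr11:96576919-96577101, scored 8.03 with RA and 71.69 and 70.96 at day 8, ranks 42 and 64. The second, at chr11:96595902-96596159, scored 3.51 with RA, rank 1836 of 1970, and 35.64 and 48.62 at day 8. The third, at chr11:96645784-96646057, whose nearest TSS is that of Snx11, scored 14.76 with RA and 20.18 and 37.14 at day 8. The order of the 5 by RA score was thus not their order at day 8.

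Genes that take up or degrade retinoids had members nearby. Within 100 kb, Cyp26a1 and Cyp26b1 were also nearest to an RA region shared with another ES list, and Stra6 was not. Stra6, the membrane receptor for retinol uptake, held one in intron 5 of 18 (chr9:58140594-58140840) that scored 11.83 with RA and 4.11 and 17.1 at day 8. Cyp26a1, which degrades RA, had one at its transcription end site (chr19:37702391-37702563) that scored 5.27 with RA and 7.12 and 10.3 at day 8. A second, 153965 bp from the Cyp26a1 TSS, scored 3.97 with RA and 4.82 and 16.21 at day 8. Cyp26b1, a second RA-degrading enzyme, was the nearest gene to a member in intron 20 of 21 of Exoc6b, at -103826 bp from its TSS (chr6:84697575-84697894). That region scored 11.9 with RA and 13.04 and 38.26 at day 8. All 4 of these regions had a peak in both day 8 replicates, and none overlapped an H3K27ac peak.

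Among regulators, Tshz1, a zinc finger factor, held 2 in its intron, with RA scores of 13.74 and 7.64. The stronger scored 38.1 and 46.96 at day 8 and the weaker 26.78 and 30.85. Meis1, a homeobox partner of Hox proteins, also held 2. The one in intron 9 of 12 (chr11:18885649-18885869) scored 4.31 with RA and 10.61 and 15.99 at day 8, and the one in intron 7 scored 4.19 and had no day 8 peak. Nrip1, a corepressor of nuclear receptors, had one scoring 10.78, with a day 8 peak of 11.1 in replicate 2 only. The regions near Neurog1, a proneural factor (RA score 3.78), Notch1, a receptor of cell fate choice (2.99), and Elavl4, a neuronal RNA-binding protein (6.74), had no day 8 peak.

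**Figure D3:**
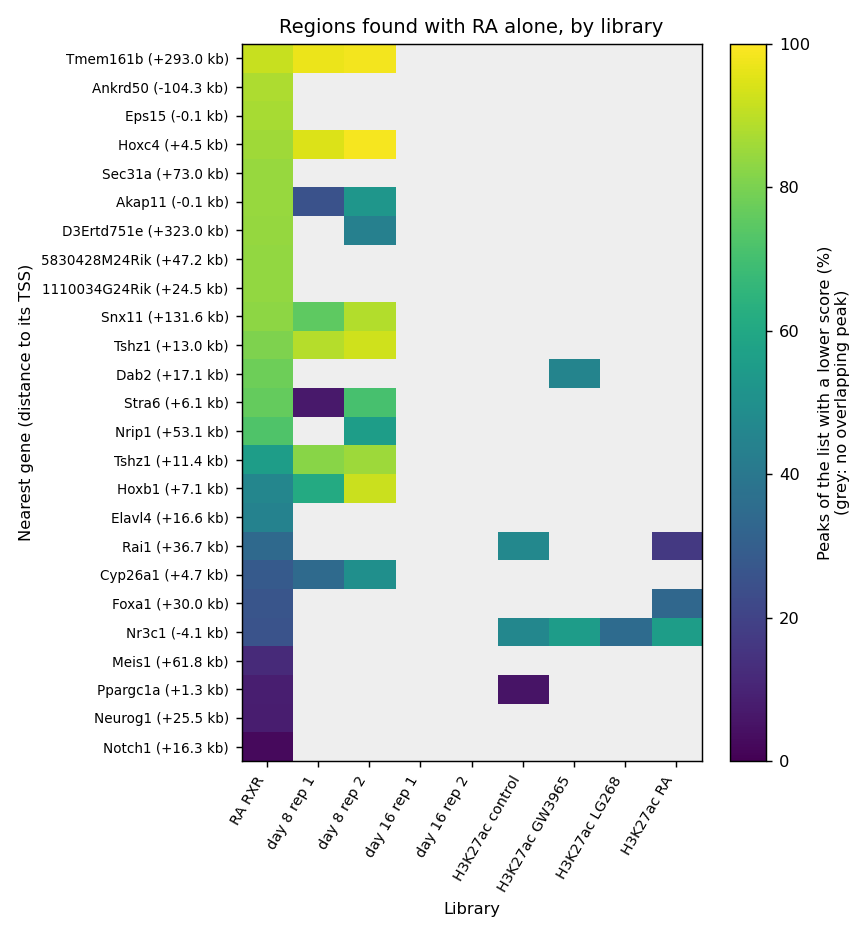
The 10 regions found with RA alone that scored highest, and those within 100 kb of a gene of the lists that is named here, in rows by RA score with the nearest gene and the distance to its TSS in kb; columns are the libraries. Colour is the share of the library's peaks that scored lower (%), from 0 to 100, and grey marks no overlapping peak; the regions at Tmem161b and Hoxc4 stand near the top of both day 8 lists, and none of those shown has a day 16 peak.

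Several genes lay near more than one member. Of the 514 genes nearest to a member within 100 kb, 95 (18.5%) were also nearest to another ES RXR region within that distance. Of all nearest genes, 28 had 2 or more members and 2 had 3. Camk2n1, an inhibitor of the calcium and calmodulin-dependent kinase CaMKII, was one. Its region 8571 bp after the TSS (chr4:138463614-138463825) scored 6.34 with RA and 25.86 and 57.14 at day 8. The regions at -1184 and 392 bp from its TSS scored 3.85 and 3.16, had no day 8 peak, and overlapped an H3K27ac peak with control and with RA, respectively. Gse1, a gene for a coiled-coil protein, was the other; its regions scored 9.28, 5.04 and 4.23 with RA. The first and second scored 7.12 and 8.76 in day 8 replicate 1 and 13.59 and 17.1 in replicate 2, and the third had no day 8 peak.

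Of the 26 RAR target genes of the list that any peak list names, 9 had an RA-alone region within 100 kb, or 34.6%, against 3.55% of the 14490 named genes. They included Cyp26a1, Foxa1, Hoxb1, Meis1, Nrip1, Rai1, Stra6 and Tshz1. Within 10 kb the count was 3, those of Cyp26a1, Hoxb1 and Stra6. Regions shared between RA and another list were near 13 of the 26, and LG268-alone regions were near 2, Nrip1 and Rai1. The list was put together with earlier results of these data known, so the count is a description. Of the genes named here, Cyp26a1, Hoxb1, Stra6 and Tshz1 had a region within 100 kb with a peak in both day 8 replicates.

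Other lists had fewer. Hox genes had 3 of 17 (17.6%; Hoxb1 and Hoxc4 among them), retinoid metabolism and transport 2 of 11 (18.2%; Cyp26a1 and Stra6), Hox cofactors 2 of 14 (Meis1 and Tshz1) and endoderm genes 2 of 14 (Foxa1 and Dab2). Nuclear receptor coregulators had 2 of 17, Nrip1 and Ppargc1a. Neural progenitor genes had 1 of 22 (4.55%; Neurog1), neuronal genes 1 of 18 (Elavl4), signalling genes 1 of 27 (Notch1) and other nuclear receptors 1 of 23 (Nr3c1). The 6 retinoid receptor genes, 18 pluripotency genes, 7 mesoderm genes, 17 LXR targets and 19 PPAR targets had 0. For 3 of those lists the RA peaks were ones shared with another condition: 3 of 6 retinoid receptor genes (Rara, Rarb and Rarg), 9 of 17 LXR targets and 10 of 19 PPAR targets had such a region within 100 kb. In each list that had a member, shared RA regions were near at least as many genes as RA-alone ones. They were near 5 of 17 Hox genes, 5 of 11 retinoid metabolism and transport genes, 3 of 14 Hox cofactors and 4 of 17 coregulators. Of all 14490 named genes, 840 had a shared RA region within 100 kb, and 637 had an LG268-alone one. LG268-alone regions were near as many Hox cofactors (2 of 14) and coregulators (2 of 17) as RA-alone ones. They were near more of the other nuclear receptors (4 of 23), neural progenitor genes (2 of 22) and signalling genes (2 of 27). Fewer Hox (1 of 17), retinoid metabolism and transport (1 of 11), endoderm (0 of 14) and neuronal (0 of 18) genes had one. So did 1 of 17 LXR targets and 2 of 19 PPAR targets.

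Members were less often under a control H3K27ac peak than each of the 3 other classes of RXR regions, and for the other lists the comparison with LG268-alone regions depended on the list. A control H3K27ac peak overlapped 159 members, or 25.1%, against 28.8% of all ES RXR regions. The GW3965 list overlapped 23.1% (all regions 26.0%), the LG268 list 18.01% (all regions 20.3%) and the RA list 139, or 22.0% (all regions 24.4%). The order of the 4 shares cannot be read as an order of treatments, since the lists differ in length and each has 1 library. Against LG268-alone regions, the members' share was lower by the control list, 25.1% against 34.2% (difference -9.10 points, interval -13.8 to -4.27, Fisher's exact test, adjusted p = 0.000889). The same list overlapped 35.1% of regions shared by LG268 and RA (adjusted p = 0.00162, Fisher's exact test) and 40.6% of those found in control, LG268 and RA (adjusted p = 3.73e-07). By the RA list the shares were 22.0% and 26.5%, a difference of -4.57 points that did not pass (interval -9.03 to -0.0229, adjusted p = 0.0779, Fisher's exact test). The GW3965 list gave 23.1% and 30.2% (Fisher's exact test, adjusted p = 0.00604) and the LG268 list 18.01% and 22.8% (adjusted p = 0.0504). With H3K27ac lists cut to equal length the RA list's difference passed, at -5.32 points (adjusted p = 0.0393, Fisher's exact test), and the GW3965 list's did not, at -4.90 points (adjusted p = 0.0598).

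By the RA list, the share was also lower than in regions shared by LG268 and RA, which stood at 31.3% (adjusted p = 0.00256, Fisher's exact test), and in those found in control, LG268 and RA, which stood at 36.6% (adjusted p = 6.70e-07). Low scores went with promoters and acetylation. From the highest to the lowest of the 4 score bands, members within 1 kb of a TSS went from 19.5% to 36.7% and members with an RA H3K27ac peak from 10.7% to 30.4%. With each class limited to regions at or above its own median score, a setting chosen after the data were seen, the control list still gave a lower share for members than for LG268-alone regions, 18.9% against 30.1% (difference -11.2 points, adjusted p = 0.00275, Fisher's exact test). The RA list then gave 16.7% and 21.4%, a difference of -4.65 points that did not pass (adjusted p = 0.178, Fisher's exact test).

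**Figure D4:**
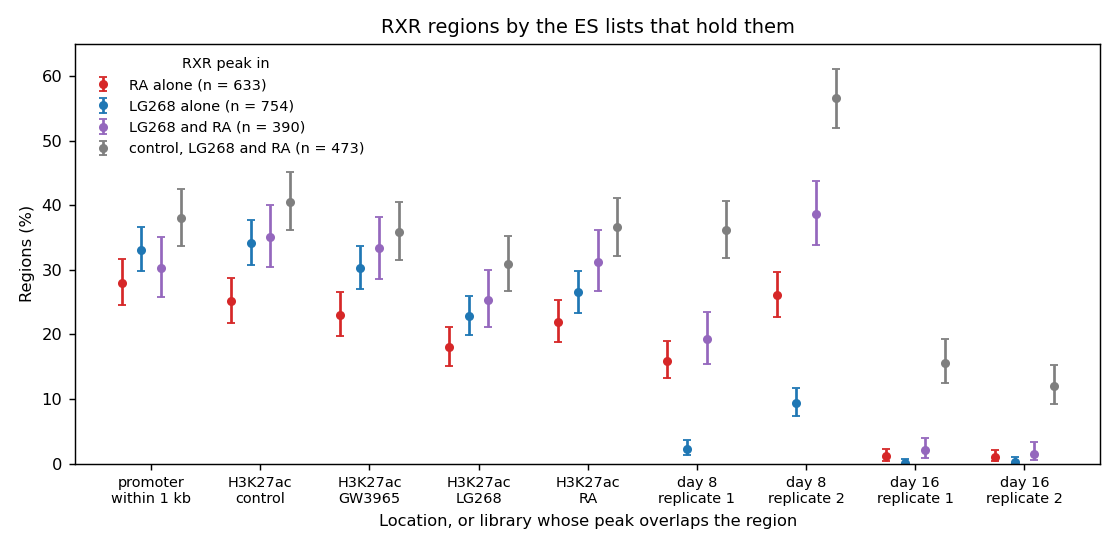
Share of regions (%) within 1 kb of a TSS, or overlapped by a peak of each H3K27ac, day 8 and day 16 library, for 4 classes of ES RXR regions. Points are shares and lines exact 95% intervals; at day 8 the RA-alone regions (red) stand at 15.96% and 26.1% and the LG268-alone regions (blue) at 2.25% and 9.42%.

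Most members with H3K27ac were at promoters. Of the 177 members within 1 kb of a TSS, 70.6% overlapped a control H3K27ac peak, 66.1% a GW3965 one, 54.2% an LG268 one and 62.7% an RA one. Of the 456 farther away, the shares were 7.46%, 6.36%, 3.95% and 6.14%. At day 8 the 2 sets stood the other way round, with both replicates holding 5.65% of the promoter members (interval 2.74 to 10.1) and 18.6% of the distal ones (15.2 to 22.5). In all, 443 members overlapped no H3K27ac peak in any list and 100 overlapped one in all 4. At least 1 list overlapped 30.0% of members and 34.3% of all ES RXR regions. All 4 lists overlapped 15.8% and 16.5%, so these counts stood near those of all regions.

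Between control and RA, 119 members had an H3K27ac peak in both lists, 20 in the RA list and not the control list, and 40 in the control list and not the RA list. Over all ES RXR regions, 2.94% had RA without control and 7.35% control without RA. With 1 library each, and a control list longer than the RA list, no change of acetylation was tested. Of regions called in just one of the 2, the RA list held 20 of 60 members, or 33.3%, and 15 of 88 LG268-alone regions, or 17.05% (difference 16.3 points, interval 2.25 to 30.4, Fisher's exact test, adjusted p = 0.0504). The same share was 14 of 43 for regions shared by LG268 and RA and 22 of 63 for those found in control, LG268 and RA.

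Among the 20 members with an RA and no control H3K27ac peak, 7 were within 1 kb of a TSS and 4 had peaks in both day 8 replicates. Of the 40 with the reverse, 21 were within 1 kb and 0 had peaks in both day 8 replicates. Among all 633 members, 28.0% were within 1 kb of a TSS and 15.0% had peaks in both day 8 replicates. That day 8 share was 5.65% for members within 1 kb and 18.6% for those farther away. The contrast between the 20 and the 40 was seen in the data and was not tested. The first group included an intron of Sdk2, a cell adhesion protein of neural circuits (chr11:114048055-114048279), which scored 14.64 for RXR with RA, 21.67 and 39.41 at day 8, and 4.5 for H3K27ac with RA. It included a region 30.0 kb from Foxa1, a forkhead factor of endoderm (RXR score 5.23, RA H3K27ac score 5.86, no day 8 peak). It also included regions near Cd83, an immune surface protein (RXR 6.45, H3K27ac 3.94, day 8 7.93 and 13.59), and at the promoters of Atg5, an autophagy factor, and St8sia6, a sialyltransferase. These H3K27ac peaks were low in the RA list, at rank 12257 for Sdk2, 9978 for Foxa1 and 13296 for Cd83 of 14958. The region at Junb, an AP-1 factor, had H3K27ac peaks with GW3965, LG268 and RA and none in control. That at Atg5 had one with GW3965 (score 5.83) as well as with RA (3.6). Of the 20 members, 14 had an H3K27ac peak in the RA list alone. The second group included promoters of Rin2, a Rab5 exchange factor, and Wfs1, a protein of the endoplasmic reticulum, with control H3K27ac scores of 7.73 and 10.04. Both also had a GW3965 H3K27ac peak, scoring 5.34 and 15.61. Of the 40 members of this group, 20 had an H3K27ac peak in the control list alone.

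The 95 members held in both day 8 replicates were mostly more than 1 kb from a TSS and without an H3K27ac peak in ES cells. Their median distance to a TSS was 26671 bp, against 14120 bp for members without a day 8 peak. They comprised 46 intergenic and 35 intronic regions, and 10 were within 1 kb of a TSS. Any ES H3K27ac list overlapped 11 of them, or 11.6% (interval 5.92 to 19.8), against 34.6% (30.3 to 39.2) of the 462 members without a day 8 peak. More than 100 kb from a TSS lay 29.5% of the 95 (interval 20.6 to 39.7) and 13.6% of the 462 (10.6 to 17.1). These contrasts were seen in the data and were not tested. The 10 promoters included Mdk, a heparin-binding growth factor (chr2:91932596-91932882), which scored 11.85 with RA and 16.96 and 43.78 at day 8. Akap11, an anchoring protein for protein kinase A whose promoter is shown among the sequences, scored 15.73 with RA and 6.33 and 11.1 at day 8. The others were at Abcb8, Uckl1, Ddx56, Kif3a, Zfp442, Gbf1, 3300002I08Rik and A830082K12Rik. The differentiating culture may hold several cell types, and a peak does not tell in what share of the cells RXR was bound.

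**Figure D5:**
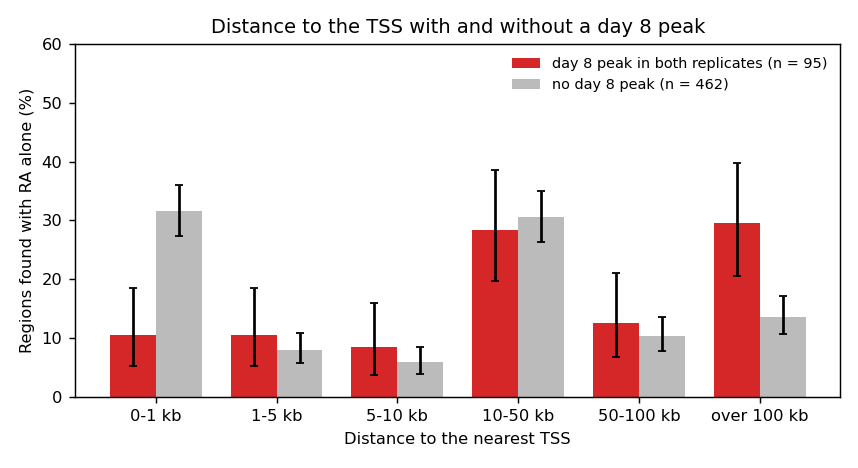
Distance from regions found with RA alone to the nearest TSS, as the share of regions (%) in each distance bin. Red bars are the 95 regions with a peak in both day 8 replicates and grey bars the 462 without one, with exact 95% intervals; within 1 kb lay 10.5% of the former and 31.6% of the latter.

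At day 16 few members were found. The replicates held 1.11% and 0.948% of them, a mean of 1.03% ± 0.112 (SD, n = 2), and both held 4, or 0.632%, against 2.11% of all ES RXR regions. LG268-alone regions stood at 0.133% (difference 0.499 points, interval -0.227 to 1.49, Fisher's exact test, adjusted p = 0.262) and regions shared by LG268 and RA at 1.28% (adjusted p = 0.421). Without replicate 2 the difference from LG268 alone passed, at 0.973 points (adjusted p = 0.0474, Fisher's exact test), and with peaks within 1 kb merged it was 0.0271 points (adjusted p = 1, Fisher's exact test). The difference from LG268 and RA passed with repeat peaks kept, at -3.96 points (adjusted p = 0.000284, Fisher's exact test). It also passed with ES lists of equal length, at -4.39 points (adjusted p = 0.0475, Fisher's exact test). Regions found in control, LG268 and RA stood at 10.6%, higher than the members by more than counting error (adjusted p = 4.37e-14, Fisher's exact test). The day 16 lists are short, which limits what they can hold.

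The 4 members held in both day 16 replicates scored 3.01 to 7.07 with RA. Of these, 3 lay within 1 kb of a peak of another ES list: 306 bp from a control peak near Cyp51, and 421 bp and 799 bp from LG268 peaks near 2700054A10Rik and Ccr1. When peaks within 1 kb were merged, the members' day 16 share was 0.163%. The one in intron 33 of 47 of Akap9, a centrosomal anchoring protein, nearest to the TSS of Cyp51, an enzyme of cholesterol synthesis (chr5:4054247-4054460), scored 7.07 with RA, 25.5 and 34.63 at day 8, and 20.15 and 12.85 at day 16. The one near 2700054A10Rik (chr17:13589913-13590126) scored 5.36 with RA, 15.82 and 19.66 at day 8, and 10.08 and 8.07 at day 16. Both were thus found in all 4 differentiation libraries. The region near Ccr1, a chemokine receptor (chr9:123924471-123924672), scored 5.40 with RA and 6.37 and 10.63 at day 16, and had a day 8 peak in replicate 1 alone. The promoter of Hirip3, a histone chaperone (chr7:126861877-126862049), scored 3.01 with RA and 4.47 and 3.70 at day 16.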

How the data were processed

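Peak lists of 12 ChIP-seq libraries were used, 1 sample each, with groups taken from the labels. Tools in the submitters' processing notes are MACS2 2.0.10, HOMER 4.2 and BWA 0.6.0, and the builds in them are mm10 and mm9 with no role given; annotation was on mm10, per the file headers. Peaks were called per library. The score of each peak is the authors' deposited value, and its scale is not stated. Location class, nearest gene and TSS distance in bp were also deposited by the authors.

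From these, RXR peaks in repeat classes were dropped, lists were merged, and a region took the location and score of its highest peak in the list concerned. A peak counted as present at an overlap of 1 bp. A promoter region lay within 1 kb of a TSS. Shares have exact Clopper-Pearson 95% intervals and differences have Newcombe intervals; both cover counting error only, and neighbouring regions are not independent. Region classes were compared by two-sided Fisher's exact test, Benjamini-Hochberg adjusted over 27 tests, with 0.05 as threshold, on measures the selection did not use. The merging and overlap steps were tested on made-up lists with known overlaps. The members, the 15 gene lists and the tests were chosen with earlier results of these data known. A gene of a list was counted where a region within 100 kb named it as nearest.

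Genes named are the nearest to the 10 highest members, to the 10 highest with day 8, day 16 or one-sided control and RA H3K27ac peaks, list genes, genes with 3 or more members, and the 3 members nearest to and the 3 regions just past the rule's limit. Skap1, Mir10a, Mdk, Syndig1, Gm52524, Dph5, Pold1, the second regions of Cyp26a1 and Meis1, and the remaining day 8 promoters were chosen after their values were seen. A result that the rule names is not reported here. No genome was used, so the planned search for repeats covers RefSeq promoter windows of GRCm38.p6 alone. Alternatives were other repeat filters, merging within 1 kb, 50% reciprocal overlap, higher scores, lists of equal length, peaks within 500 bp, gene windows of 10 kb or without limit, and each day replicate left out; distal regions only and the higher-scoring regions of each class were added after the data were seen. Python 3.11.15 was used, with scipy 1.17.1, pandas 2.3.3, numpy 2.4.6, statsmodels 0.14.6 and matplotlib 3.10.9.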

Additional observations from a re-analysis of the deposited data

How the results depend on the processing

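Of the results against LG268-alone regions and the counts, 75 alternative values kept their direction and side of the threshold. The number of RA-alone regions was 194 with members at or above the median RA score and 205 with ES lists cut to 642 peaks each. Limiting the members by score and not the other class moves a difference by construction, since shares differ with score; such values are no support, and were -12.5 points for promoters, -12.0 for the LG268 H3K27ac list and -13.1 for the RA list, all past the threshold. The promoter difference also passed at -5.37 points (dropping simple repeats alone), -12.1 (ES lists of equal length) and -9.05 (higher-scoring regions of each class). The LG268-list H3K27ac difference passed at -4.63 (simple repeats alone), -7.06 (peaks within 500 bp) and -4.78 (distal regions). The RA-list H3K27ac difference passed at -11.2 (equal ES lists), -5.32 (equal H3K27ac lists) and -4.38 (distal); with higher-scoring regions of each class neither difference passed, at -4.85 (LG268 list) and -4.65 (RA list). The GW3965-list difference did not pass at -6.81 (equal ES lists, with fewer regions) and -4.90 (equal H3K27ac lists). The share acetylated with RA and not control passed at 18.1 points (merging within 1 kb), 16.1 (reciprocal overlap) and 21.0 (within 500 bp). The day 16 difference, 0.499 points, ran from 0.683 to 0.973 with a replicate left out, and was 0.0271 (merging within 1 kb) and 0.0161 (equal ES lists). RAR targets within 10 kb numbered 3. Among comparisons with the other classes, 155 values were unaltered in direction and call, 4 lost and 4 gained the call. All 12 differences that changed sign were past the threshold in neither setting. Against LG268 and RA, the share acetylated with RA and not control became -0.300 points (simple repeats alone), -0.338 (merging within 1 kb), -1.14 (equal ES lists) and -4.76 (equal H3K27ac lists). Against control, LG268 and RA it became 1.21 (merging within 1 kb), 2.07 (reciprocal overlap) and 5.08 (members alone limited by score). The day 8 difference from LG268 and RA became 6.02 (likewise limited). The repeat difference became -11.1 against LG268 alone (equal ES lists) and, against LG268 and RA, -1.13 (likewise) and -1.37 both in the middle 100 bp and with AGGTCA alone. Except where a value shows it, the cause was not tested. No paired analysis was possible because no result compares day 8 with day 16 by a test. Unknown depth limits every absence of a peak to these lists.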
